A study of Mus musculus with 30 samples.

Results

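CCR2low macrophages without GFP were compared with Ly6Clow monocytes of the blood, in 7 of the 30 libraries deposited for the study. The macrophages came from the glioma-bearing brains of 4 mice (22, 23, 24 and 26) and the monocytes from the blood of 3 of them (22, 23 and 24). All mice carried RFP in place of one Ccr2 allele (C57BL6.CCR2RFP/WT), were 12 to 18 weeks old and bore GL261.BpalmGFP tumors, a mouse glioma cell line whose membranes carry GFP that other cells can take up. The macrophages (labelled CCR2low macrophages GFPneg) were sorted from the brain as F4/80+ cells high for CD11b and CD45, low for Ly6C and for the CCR2 reporter, and negative for GFP. The monocytes (labelled Ly6Clow blood monocytes) were sorted from blood as CD45+ CD115+ cells low for CD11c and Ly6C. Both populations were chosen by the sample titles, and of 2 libraries of Ly6Clow monocytes of mouse 23 the first was left out. It held 3460 genes with 5 or more reads, against at least 6475 in the 7 used. The comparison asks how far the macrophages of the tumor-bearing brain differ in their transcriptome from the patrolling monocytes of the circulation. Brain cells were released by enzymes at body temperature and blood cells were not, so the effects of tissue and of handling cannot be told apart.

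Ly6Clow, or patrolling, monocytes crawl along the inside of blood vessels and survey the endothelium. They depend on the nuclear receptor NR4A1 and derive largely from Ly6Chigh, or classical, monocytes, which enter inflamed tissue by way of CCR2. Macrophages that settle in tumors take up dying cells, degrade them in lysosomes, secrete chemokines and complement, and remodel matrix.

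Values are normalized read counts, in counts per 1000000 after TMM scaling (CPM), and are listed in the order of mice 22, 23, 24 and 26 for the macrophages and 22, 23 and 24 for the monocytes. Fold changes are log2 values from edgeR's quasi-likelihood fit, macrophages minus monocytes, with their standard error. Calls were made where the p adjusted over all genes tested (Benjamini-Hochberg) was below 0.05. The 7 libraries held 1799420 to 3809705 counts on genes. The library of Ly6Clow monocytes of mouse 23 stood apart. It held 13.3% spike-in counts against 0.38% to 2.47% in the other 6, 6475 genes with 5 or more reads against 9512 to 12340, and a rank correlation of 0.711 and 0.715 with the other monocyte libraries against 0.874 between those. It also came from a separate count table. Counts without it are given below beside the full ones. The compared libraries then share a count table, but a library of the second table, of GFPpos glioma monocytes of mouse 22, stayed in the fit.

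Of the sort markers, Ly6c2, which codes for Ly6C, stood at 27.8, 273 and 68.1 CPM in the Ly6Clow libraries and at 93.04, 149, 165 and 91.2 CPM in the macrophages, against a mean of 1176 CPM in Ly6Chigh monocytes. Ccr2 was at 60.01, 85.2, 31.9 and 112 CPM in the macrophages, with a mean of 243 CPM in CCR2high macrophages. Csf1r, the receptor for CSF1 (CD115), was present in both populations, with 3161, 2387, 3506 and 3993 CPM in the macrophages and 1944, 2558 and 3940 CPM in the monocytes (log2 fold change 0.21 ± 0.24, adjusted p = 0.56). Itgam (CD11b) and Cd68, a lysosomal membrane protein of macrophages, were not called either, with log2 fold changes of -0.18 ± 0.52 and -0.13 ± 0.20. Adgre1 (F4/80) was at 531, 503, 671 and 804 CPM in the macrophages and 417, 379.8 and 401 CPM in the monocytes and lay near the threshold (0.65 ± 0.25, adjusted p = 0.06). It was called higher by DESeq2 (adjusted p = 0.018), with DESeq2 size factors (0.033), with at least 10 counts in every library (0.020) and with both mouse 23 libraries summed (0.032). Ptprc (CD45) was lower in the macrophages, at 668, 572, 621 and 842 against 1399, 1656 and 2284 CPM (log2 fold change -1.40 ± 0.22, adjusted p = 3.6e-05), although with spike-in scaling its value turned to 0.06.

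Markers of other cells moved with the comparison. Of 15 microglial genes 14 could be tested and 13 were higher in the macrophages, and the summed level of the list ran from 6232 to 14950 CPM against 1406 to 1812 CPM in the monocytes. Tmem119, a membrane protein of microglia, was at 945, 1031, 2198 and 699.8 CPM and at 0 in every monocyte library. P2ry12, the purinergic receptor of resting microglia, was at 499, 654, 1767 and 247 against 0.472, 32 and 3.25 CPM, and Sall1, the transcription factor that defines microglia, at 22.03, 17.7, 83.2 and 13.7 against 0 CPM. Mouse 24 was the highest of the 4 for each of the 3. The sort took CD45-high cells to keep microglia out, and their part in the results was not tested. Genes of border-associated macrophages summed to 904 to 2019 against 147 to 172 CPM (4 of 11 higher). Those of dendritic cells summed to 302 to 516 against 718 to 2612 CPM (3 higher and 4 lower of 12), with Cd209a at 1.10, 2.12, 24.04 and 1.05 against 328, 1674 and 1078 CPM.

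Astrocyte genes did not overlap between the populations and summed to 122 to 254 against 17.2 to 83.3 CPM (5 of 8 higher, Sox9 at 0), and their part in the results was not tested. The other marker lists overlapped. Neutrophil genes spanned 294 to 2918 CPM in the macrophages and 910 to 1352 CPM in the monocytes (0 of 13 called, 2 at an unadjusted p under 0.05 and 3 called by DESeq2, with Mpo and Elane at 0 throughout), and the macrophages of mouse 24 held Ngp, a granule protein, at 378 CPM. B and plasma cell genes were present in every library (768 to 4679 against 1035 to 1419 CPM), with 2 of 12 higher, near the 15% of all genes. So were T and NK cell genes (2251 to 4252 against 1829 to 2598 CPM, 1 higher and 1 lower of 16). Oligodendrocyte genes summed to 359 to 512 against 441 to 749 CPM (4 higher and 1 lower of 6, Opalin at 0), and endothelial genes to 58.7 to 231 against 78.1 to 123 CPM (4 of 9 higher). Neuronal genes (at most 21.2 CPM in all), erythroid genes (at most 107 CPM) and platelet genes (at most 183 CPM) had no called member, and DESeq2 called none of them either. At an unadjusted p under 0.05 stood 1 of 2 neuronal genes, 0 of 4 erythroid and 0 of 3 platelet genes. The defining genes Syt1, Stmn2, Nefl, Slc17a7, Slc4a1, Gp1ba, Gp1bb and Gp6 were at 0 in all 7 libraries. In bulk RNA, fewer cells of a type and less RNA per cell cannot be told apart.

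**Figure D1:**
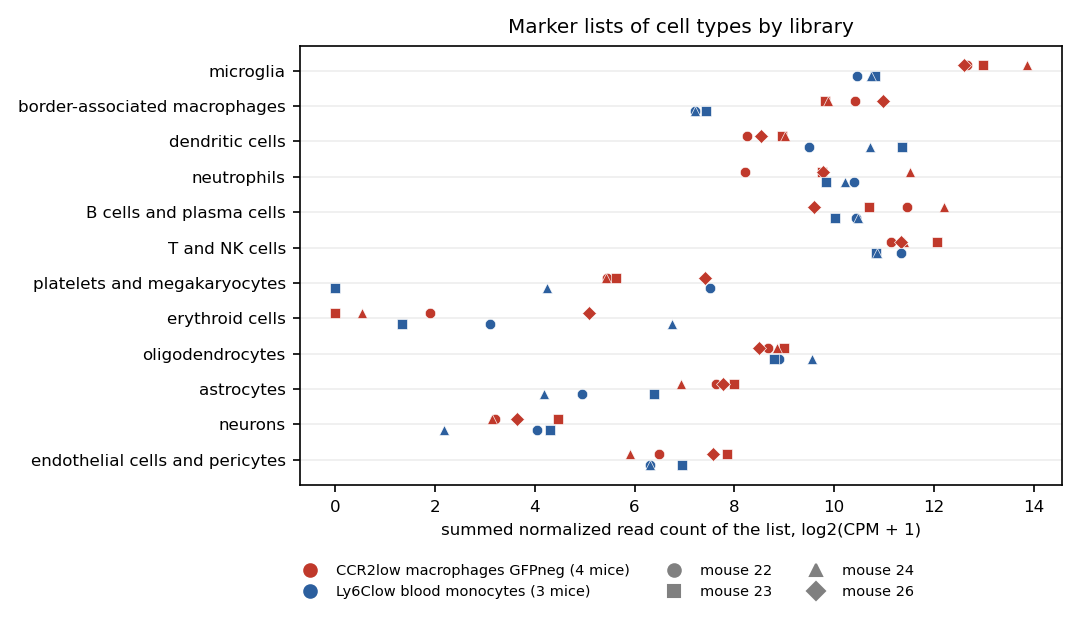
Summed normalized read count of each marker list, as log2(CPM + 1), for every library (red, CCR2low macrophages GFPneg; blue, Ly6Clow blood monocytes; marker shape, mouse). The microglial, border-associated and astrocyte lists lie higher in all 4 macrophage libraries than in any monocyte library, and the dendritic cell list lies lower.

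Of 11566 genes tested, 2705 (23.4%) were called. In the macrophages 1739 genes (15%) were higher and 966 (8.35%) lower. Without the mouse 23 monocyte library the counts were 1337 and 742, of which 1167 and 563 were among the genes called with it. Replicates of the 2 populations did not overlap for 2874 genes (24.8%), 2013 of them higher (17.4%) and 861 lower (7.44%) in the macrophages. Absence of overlap was required of the genes named for the largest change, so for them it adds no support. Others were named by the smallest p, from the same values. The direction rests on the scaling for many genes, and 555 of the 966 lower genes turned positive with the spike-ins. When the libraries were scaled by the spike-in RNAs instead of TMM, the median over all genes went from 0.26 to 1.74 on the log2 scale, a shift of 1.48, the calls became 1586 higher and 34 lower, and the share of calls that were higher moved from 64.3% to 97.9%. Without the mouse 23 library, spike-in scaling gave a median of 1.21 and 583 higher and 37 lower genes, a split chosen after seeing the data. Of the 966 lower genes 404 then turned positive. The spike-in values of lists and genes below include that library, and its part in them was not tested. The spike-ins were added to RNA and not to cells, so they do not measure RNA per cell. The numbers mark mice, and the fit with the mouse as a block over all populations gave 1903 higher and 996 lower genes. Restricted to the 3 mice that gave both populations, with no other population in the fit, the block called 81 higher and 72 lower. Changes below are relative to the TMM scale, and the counts of each list with the spike-ins stand beside them. The counts of each list are to be read against 15% higher and 8.35% lower over all genes. With no other population in the fit, 460 higher and 278 lower genes were called, and the lists fell unequally. Chemokine genes kept 13 of 14 higher and patrolling genes 15 of 18 lower. Glycolysis and hypoxia genes kept 4 of 15 higher, lysosomal genes 11 of 22 and cell cycle genes 11 of 27. Ribosomal genes kept 0 of 16 lower, and MHC class I and class II genes 0 of 3 higher each.

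**Figure D2:**
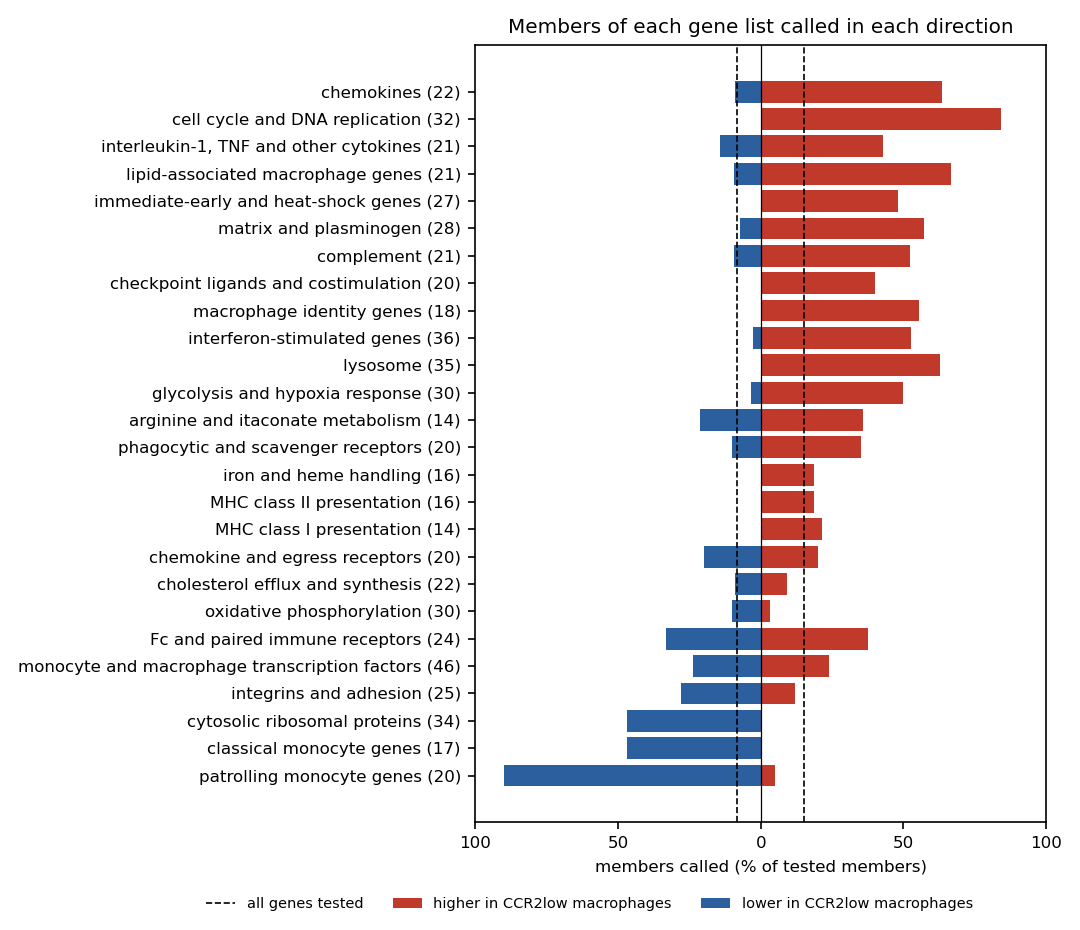
Share of the tested members of each gene list (number tested in brackets) called higher (red, right) or lower (blue, left) in CCR2low macrophages than in Ly6Clow monocytes at adjusted p under 0.05. Dashed lines mark the share of all genes tested, 15% higher and 8.35% lower. Patrolling monocyte genes reach furthest to the left, with 18 of 20 lower, and cell cycle genes furthest to the right, with 27 of 32 higher.

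Genes of patrolling monocytes were lower in the macrophages almost throughout. Of 20 members 18 were lower and 1 higher (17 and 0 without the mouse 23 library), the median log2 fold change was -3.12 against 0.26 over all genes, and with spike-in scaling each of the 18 stayed below 0 and 8 were called. Ear2, an eosinophil-type ribonuclease, was at 1038, 1319 and 1102 CPM in the monocytes and at 1.65, 5.66, 12.9 and 3.69 CPM in the macrophages (log2 fold change -7.56 ± 0.81, adjusted p = 1.6e-07). Ace, the angiotensin-converting enzyme, fell from 450.1, 267 and 658 to 2.75, 2.60, 0 and 1.58 CPM (-7.96 ± 0.97, adjusted p = 1.1e-06). Treml4, a receptor of the TREM family used to mark these monocytes, was at 885, 709.8 and 1204 CPM against 23.7, 12.5, 0 and 18.5 CPM (-6.11 ± 0.78, adjusted p = 2.2e-06). For all 3 genes every macrophage library lay below every monocyte library, as for 16 of the 20 members and 7.44% of all genes tested.

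Cd300e, an activating receptor of monocytes, and Adgre4, an adhesion G protein-coupled receptor, had log2 fold changes of -8.35 ± 1.25 and -6.13 ± 0.70. Eno3, an enolase, was the member with the smallest p, at 484, 529.8 and 689.9 against 12.7, 19.1, 19.4 and 13.2 CPM (-5.13 ± 0.38, adjusted p = 3.5e-10). Spn, which codes for CD43, stood at 231, 469 and 335 CPM in the monocytes and at 15.4, 24.8, 13.9 and 26.9 CPM in the macrophages (-4.08 ± 0.47, adjusted p = 4.3e-07). Each of these genes was low in all 4 macrophage libraries. S1pr5, the sphingosine 1-phosphate receptor that monocytes use to leave the marrow, was at 316, 8.87 and 145 CPM in the monocytes and had no read in any macrophage library, so it was at least 118-fold lower. The low monocyte value of S1pr5 was that of mouse 23. Left out alone, 1 library moved the log2 fold change to -9.76 for Cd300e (macrophages of mouse 22).

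Itgal, the alpha chain of LFA-1 on which crawling depends, was at 788, 1619 and 2058 against 323, 219.6, 235 and 341 CPM (-2.41 ± 0.32, adjusted p = 3.6e-06). Cd36, a scavenger receptor for lipids, was at 562, 686 and 653 against 82.6, 70.5, 88.8 and 40.6 CPM (-3.16 ± 0.44, adjusted p = 7.8e-06). Both were lower by smaller factors than the genes above, again with no overlap. Nr4a1 was closer to the threshold, at 154, 139, 254 and 431 CPM in the macrophages and 510.4, 411 and 1023 CPM in the monocytes (-1.41 ± 0.51, adjusted p = 0.045), and the macrophages of mouse 26 lay above the monocytes of mouse 23. Cx3cr1, the fractalkine receptor, was the member that was higher, at 926, 702, 1355 and 1083 against 290.1, 283 and 894 CPM (1.05 ± 0.35, adjusted p = 0.029). Lair1, an inhibitory collagen receptor, was not called (0.44 ± 0.27). The lipid carriers Fabp4 and Apoc2, the signaling genes Gngt2 and Dusp16 and the transcription factors Pou2f2, Cebpb and Klf2 were the other lower members, with log2 fold changes from -7.38 for Fabp4 to -2.18 for Klf2. Left out alone, each library in parentheses ended the call of Nr4a1 (macrophages of mouse 22, 23 or 24 or monocytes of mouse 24, adjusted p = 0.089 to 0.2), Cx3cr1 (macrophages of mouse 24 or 26 or monocytes of mouse 22 or 23, adjusted p = 0.061 to 0.18) and Klf2 (macrophages of mouse 22, 23 or 26 or monocytes of mouse 22 or 23, adjusted p = 0.077 to 0.1). The log2 fold change without 1 library was -9.45 for Fabp4 (macrophages of mouse 26) and -6.69 for Fabp4 (monocytes of mouse 22).

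**Figure D3:**
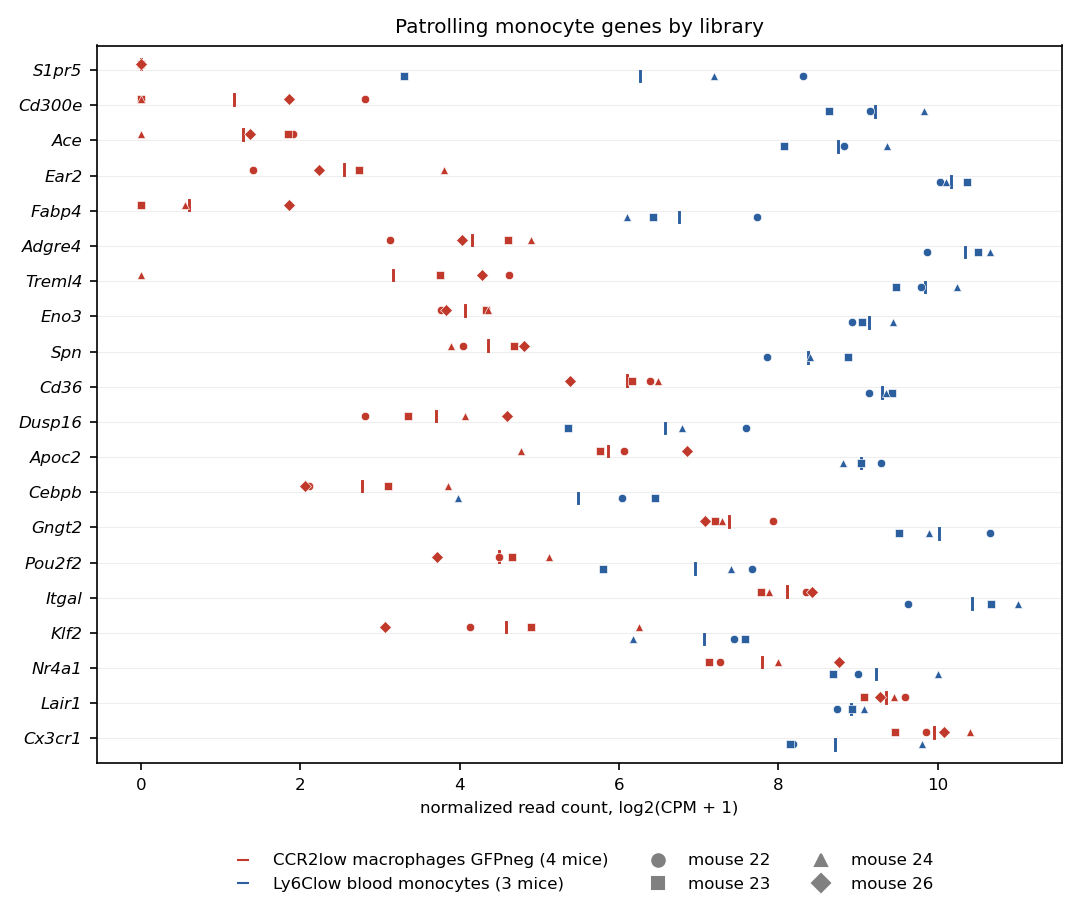
Normalized read count, as log2(CPM + 1), of the 20 patrolling monocyte genes in every library (red, CCR2low macrophages GFPneg; blue, Ly6Clow blood monocytes; marker shape, mouse; vertical bars, population means of the plotted values). The red and blue points lie apart from S1pr5 down to Itgal and overlap for Klf2, Nr4a1, Lair1 and Cx3cr1.

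Several of these genes also differed between the blood populations, in a comparison that shares the Ly6Clow libraries. There edgeR called 649 genes (5.61%), 2527 had an unadjusted p under 0.05, and DESeq2 called 1358. Spn had a mean of 50.9 CPM in Ly6Chigh monocytes, Eno3 of 77.1 CPM and Cd36 of 84.7 CPM, and each was called lower there than in Ly6Clow monocytes (adjusted p = 0.0012, 5.9e-05 and 0.00064). Ace (mean 258 CPM), Treml4 (315 CPM), Adgre4 (577 CPM) and S1pr5 (64.4 CPM) were not called by edgeR between the blood populations. In CCR2high GFPneg macrophages the means were 12.3 CPM for Spn, 17.5 for Eno3, 5.81 for Ace and 41.99 for Treml4. Between the 2 GFPneg macrophage populations edgeR called 0 genes (0%). Without adjustment 276 had a p under 0.05, and DESeq2 called 8.

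Classical monocyte genes were lower in part. Of 17 members 8 were lower and 0 higher, with a median of -1.82, and without the mouse 23 library 6 were lower and 1 higher. With spike-in scaling the median turned to 0.17, 2 were lower and 1 higher, Ly6c2, and Mgst1 changed sign. Ifitm6, an interferon-induced membrane protein, was at 1.10, 9.67, 8.33 and 8.44 against 352, 792 and 397 CPM (-6.18 ± 0.53, adjusted p = 4.0e-09). Hp, haptoglobin, was at 6.61, 28.8, 24.5 and 34.8 against 954, 1017 and 302 CPM (-4.99 ± 0.62, adjusted p = 1.6e-06), and Plac8 at 121, 241, 264 and 93.9 against 1243, 2253 and 1158 CPM (-3.11 ± 0.40, adjusted p = 2.7e-06). None of the 3 overlapped between the populations. S100a4, a calcium-binding protein, was lower as well (-3.84 ± 0.56). Ccr2 fell to 60.01, 85.2, 31.9 and 112 CPM from 221, 916 and 547 CPM (-2.96 ± 0.46, adjusted p = 3.8e-05). The macrophages were sorted as low for the CCR2 reporter, so the call of Ccr2 among the 8 adds no support. Ly6c2, S100a8 and S100a9 (calprotectin), Vcan and Fn1 were not called, with log2 fold changes from 1.08 for Vcan to -1.82 for Fn1. The mouse 23 library held the highest monocyte values of Ly6c2, Ccr2, Fn1 (497, 1398 and 366 CPM) and Chil3 (36.3, 601 and 107 CPM), and Chil3 is a chitinase-like protein called lower. The call was lost without 1 library for Chil3 (macrophages of mouse 22, 23, 24 or 26 or monocytes of mouse 23, adjusted p = 0.059 to 0.59). With the mouse as a block in the fit over all populations 13 members were lower, among them Fn1, S100a8 and S100a9 (adjusted p = 0.00076, 0.036 and 0.013). The threshold was passed without 1 library by Ly6c2 (monocytes of mouse 23 left out, adjusted p = 0.029). Leaving out 1 library moved the log2 fold change to -2.86 for S100a4 (monocytes of mouse 23).

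Among the other genes with the largest decrease, Retnla, a secreted protein of the resistin family, was at 2879, 2560 and 282 CPM in the monocytes and at 7.16, 2.83, 15.3 and 13.7 CPM in the macrophages (-7.65 ± 1.14, adjusted p = 2.0e-05). Lyz1, a lysozyme, was at 835, 365 and 123 against 2.75, 2.36, 0 and 1.05 CPM (-8.06 ± 0.90). Serpinb10 and Skint3 had no read in any macrophage library and were at 95.8, 154 and 178 and at 31.1, 57.1 and 93.2 CPM in the monocytes, at least 107-fold and 45.4-fold lower. Nxpe4, Tgm3 (a transglutaminase) and Cd300lg had log2 fold changes of -6.87 ± 0.79, -8.34 ± 1.33 and -9.02 ± 1.51. With 1 library left out the log2 fold change was -7.66 for Nxpe4 (macrophages of mouse 23), -7.18 for Lyz1 (monocytes of mouse 22) and -7.495 for Tgm3 and -8.33 for Cd300lg (monocytes of mouse 23). Among the macrophages mouse 22 alone held reads of Tgm3 and Cd300lg.

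Genes of macrophage identity were higher in 10 of 18 cases and lower in 0 (9 higher without the mouse 23 library, 9 and 0 with spike-in scaling), with a median of 1.58. Mertk, the receptor tyrosine kinase by which macrophages bind dying cells, was at 149.8, 105, 148 and 189.9 CPM against 0, 0 and 0.296 CPM (adjusted p = 9.0e-09). Fcgr1, the high-affinity Fc receptor CD64, rose from 30.7, 48.97 and 48.8 to 351, 241, 293 and 378 CPM (2.88 ± 0.24, adjusted p = 3.6e-09). For both genes every macrophage library stood above every monocyte library.

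The regulator gene Maf had a log2 fold change of 3.06 ± 0.55, Cd14, the lipopolysaccharide co-receptor, of 3.57 ± 0.68, and Aif1 (IBA1), an actin-binding protein, of 2.12 ± 0.37. Gpr34, a lysophospholipid receptor that microglia also express, was at 228, 319, 758 and 164 against 0.472, 0 and 7.69 CPM (6.92 ± 0.95, adjusted p = 6.2e-06), and Ms4a7 at 542, 422, 384 and 480.4 against 0, 65.5 and 5.33 CPM (4.27 ± 0.76, adjusted p = 0.00019). Apoe, the lipid carrier, was at 9563, 4498, 4389 and 9052 against 3684, 694 and 3290 CPM (1.43 ± 0.47, adjusted p = 0.028). Its lowest value was that of mouse 23. No call remained without 1 library for Apoe (macrophages of mouse 22 or 26 or monocytes of mouse 23, adjusted p = 0.075 to 0.14). Lgals3 (galectin 3) and Ms4a4a were not called (0.00 ± 0.20 and -0.03 ± 0.43). Mrc1, the mannose receptor CD206, was not called either (1.32 ± 0.92), and its 369 CPM in the macrophages of mouse 26 exceeded the 62.2 to 85.1 CPM of the other 3. Single libraries moved the log2 fold change to 2.98 for Cd14 (macrophages of mouse 26), 4.57 for Cd14 (monocytes of mouse 22), 7.2 for Ms4a7 (monocytes of mouse 23) and 10.51 for Gpr34 (monocytes of mouse 24).

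Complement genes were higher in 11 of 21 cases and lower in 2 (9 and 0 without the mouse 23 library, 14 and 0 with spike-in scaling), with a median of 1.89, or 1.81 with genes at 0 set to their bound. C1qa, C1qb and C1qc, the chains of C1q, lie side by side on chromosome 4 (chr4:136895917-136898803, chr4:136880129-136886187 and chr4:136889804-136893065 in GRCm38). C1qb reached 6918, 4829, 6597 and 5982 CPM against 595, 339 and 94.7 CPM (4.15 ± 0.51, adjusted p = 1.2e-06), and C1qa and C1qc had log2 fold changes of 4.69 ± 0.55 and 4.81 ± 0.53. All 3 were lower still in Ly6Chigh monocytes, with means of 7.15 (C1qa), 47.02 (C1qb) and 17.04 CPM (C1qc). C3ar1, the receptor for C3a, was at 589, 492, 327 and 1029 against 25, 32.4 and 3.85 CPM (4.91 ± 0.62, adjusted p = 1.7e-06). Cfb, factor B, was at 243, 98.1, 85.6 and 195 against 0.944, 0 and 1.18 CPM (7.64 ± 0.72, adjusted p = 1.9e-08). The protease genes C1ra and C2 and the inhibitor gene Serping1 had no read in any monocyte library and were at least 32.2-fold, 20.5-fold and 28.1-fold higher. Cfp (properdin) and Cr1l were the lower members, and both changed sign with spike-in scaling. Left out alone, each library in parentheses ended the call of Cfp (macrophages of mouse 23 or 24 or monocytes of mouse 23, adjusted p = 0.072 to 0.32) and Cr1l (macrophages of mouse 24 or monocytes of mouse 23, adjusted p = 0.053 to 0.095). Left out alone, 1 library moved the log2 fold change to 4.85 for C1qb and 5.697 for C1qc (monocytes of mouse 22) and 8.38 for Cfb (monocytes of mouse 24).

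Of 21 genes of lipid-associated macrophages 14 were higher and 2 lower (13 and 1 without the mouse 23 library, 13 and 0 with spike-in scaling), with a median of 2.79. Cd63, a tetraspanin of late endosomes, had 1229, 1026, 1088 and 1201 CPM in the macrophages and 8.49, 9.25 and 5.33 CPM in the monocytes (7.21 ± 0.50, adjusted p = 1.1e-10). Trem2, a lipid-sensing receptor, was at 425, 421, 684 and 423 against 10.8, 57.8 and 17.2 CPM (4.09 ± 0.40, adjusted p = 3.9e-08), and Axl, a receptor of the same family as Mertk, at 1415, 545, 593 and 1131 against 36.3, 88.3 and 45.9 CPM (4.02 ± 0.40, adjusted p = 4.1e-08). These 3 did not overlap, and Cd63 varied least among the macrophages. The log2 fold change without 1 library was 5.09 for Trem2 (monocytes of mouse 23).

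Spp1, osteopontin, was at 1302, 1103, 553 and 1940 against 4.72, 0 and 1.48 CPM (9.28 ± 1.04, adjusted p = 3.2e-07). Gpnmb, a lysosomal glycoprotein, was at 413, 972, 122 and 949.8 against 0, 0 and 5.03 CPM (8.28 ± 1.07, adjusted p = 2.5e-06). For both genes mouse 24, whose microglial markers were highest, had the lowest macrophage value. Ch25h, cholesterol 25-hydroxylase, had no read in any monocyte library and was at least 49.3-fold higher. Tyrobp, the signaling adaptor of Trem2, was lower at 1287, 964, 1236 and 1065 against 2329, 2592 and 1939 CPM (-1.01 ± 0.24, adjusted p = 0.0035), and it and Ccl6, the other lower member, changed sign with spike-in scaling. Cd9, Lpl (lipoprotein lipase) and Plin2 (perilipin 2, on lipid droplets) were not called. With the mouse as a block in the fit over all populations, Plin2 was called lower (log2 fold change -1.31, adjusted p = 6.9e-06). Leaving out 1 library moved the log2 fold change to 10.46 for Spp1 (monocytes of mouse 22) and 8.69 for Spp1 and 7.695 for Gpnmb (monocytes of mouse 23). Reads of Gpnmb in the monocytes came from mouse 24 alone.

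Lysosomal genes were higher in 22 of 35 cases and lower in 0, the same counts without the mouse 23 library and 17 and 0 with spike-in scaling, and the median was 0.99. The cathepsins differed in size of change. Ctsd, an aspartic protease, was at 9573, 7411, 10048 and 7833 CPM against 885, 524 and 725 CPM (3.62 ± 0.25, adjusted p = 9.4e-11). Ctsl, a cysteine protease, was at 732, 721, 789.5 and 1053 against 42.5, 5.78 and 23.97 CPM (5.10 ± 0.54, adjusted p = 1.4e-07), while Ctsb, of the same class, was at 7526, 5482, 5517 and 7634 against 3691, 3797 and 4667 CPM (0.69 ± 0.19, adjusted p = 0.0099). All 3 lay above the monocyte range in every macrophage library, Ctsb by the smallest factor. With 1 library left out the log2 fold change was 5.75 for Ctsl (monocytes of mouse 22).

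Lgmn (legumain), Grn (progranulin) and Ctsc had log2 fold changes of 2.77 ± 0.34, 1.88 ± 0.25 and 2.15 ± 0.31. Lamp1 and Lamp2, the main lysosomal membrane proteins, Psap (prosaposin) and the regulator gene Tfeb were not called (-0.43 ± 0.33, 0.27 ± 0.19, 0.16 ± 0.24 and -0.63 ± 0.44). The 22 higher members were mostly proteases and glycosidases of the lysosomal lumen, such as Ctsh, Ctss, Hexa, Gaa and Gusb. Without 1 library the threshold was passed by Mcoln1 (monocytes of mouse 22 left out, adjusted p = 0.026) and Lamp2 (monocytes of mouse 23 left out, adjusted p = 0.026). Single libraries moved the log2 fold change to 3.42 for Lgmn (monocytes of mouse 23).

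The promoters of lysosomal genes can hold the CLEAR element, TCACGTGA, which TFEB and its relatives bind. The element reads the same on both strands and contains the E-box CACGTG. In RefSeq promoter windows of GRCm38.p6, from 250 bases before to 50 after the start, 4 of the 28 lysosomal genes with a window (14.3%) held it, against 1.12% of 27025 genes. The 4 were Ctsd, which was higher, and Ctsa (protective protein, 0.10 ± 0.22), Mcoln1 (a lysosomal calcium channel, 1.23 ± 0.95) and Atp6v0d1 (a proton pump subunit, -0.17 ± 0.34), which were not called. Stretches from 3 of them are shown, with the element in capitals, since a gene called higher and genes not called carry the same letters. They lie at chr7:142387894-142387951 on the minus strand and at chr2:164833735-164833772 and chr8:3500448-3500505 on the plus strand, in that order:
Ctsd: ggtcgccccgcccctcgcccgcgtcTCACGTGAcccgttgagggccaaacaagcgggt
Ctsa: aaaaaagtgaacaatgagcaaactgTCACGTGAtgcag
Mcoln1: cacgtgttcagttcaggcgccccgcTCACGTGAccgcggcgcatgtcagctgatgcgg
A match is a description of the letters and not of binding.

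Of 16 genes of MHC class II presentation 3 were higher, near the 15% of all genes, and 0 lower (4 higher without the mouse 23 library), with a median of 0.37. The 3 were H2-Ab1, H2-Eb2 and Ctss, the protease that trims the invariant chain (0.94 ± 0.29). The count moved to 11 and 0 with spike-in scaling, the mouse 23 library included. It then held H2-Aa, H2-Eb1, Cd74, H2-DMb1 and H2-Oa. H2-Ab1, a class II beta chain, was at 14036, 6580, 9728 and 9025 CPM against 4156, 4793 and 5237 CPM (1.06 ± 0.36, adjusted p = 0.036). H2-Aa, its alpha chain, was at 6786, 4075, 5106 and 5143 against 2300, 9090 and 3663 CPM (0.07 ± 0.35, adjusted p = 0.91), and Cd74, the invariant chain, at 24772, 12711, 18010 and 17873 against 9012, 26046 and 11327 CPM (0.25 ± 0.37, adjusted p = 0.68). For H2-Aa and Cd74 the monocytes of mouse 23 held more than any macrophage library and those of mice 22 and 24 held less. H2-DMb1, of the peptide exchange factor, was not called (0.17 ± 0.41). H2-Eb1, another beta chain, had the same order (0.36 ± 0.34) and reached an adjusted p of 0.023 without mouse 23. The blood populations differed for it, with a mean of 543 CPM in Ly6Chigh monocytes (adjusted p = 0.00012). Of 14 genes of MHC class I presentation 3 were higher, against 15% of all genes. They were Tap1 and Tap2 of the peptide transporter (1.08 ± 0.31 and 1.12 ± 0.31) and Pdia3 (1.24 ± 0.40). None of these 3 was called without the mouse 23 library or with spike-in scaling, which called 0 of the 14. The call was lost without 1 library for H2-Ab1 (macrophages of mouse 22 or monocytes of mouse 22 or 23, adjusted p = 0.092 to 0.12), Ctss (macrophages of mouse 22 or monocytes of mouse 22 or 24, adjusted p = 0.051 to 0.072), H2-Eb2 (monocytes of mouse 22 or 23, adjusted p = 0.057 to 0.07), Tap1 (monocytes of mouse 22 or 23, adjusted p = 0.086 to 0.11), Tap2 (monocytes of mouse 22 or 23, adjusted p = 0.065 to 0.079) and Pdia3 (macrophages of mouse 22 or monocytes of mouse 22 or 23, adjusted p = 0.056 to 0.16). With the mouse as a block 5 class II genes were higher, H2-Oa among them (adjusted p = 0.0027). The threshold was passed without 1 library by H2-Oa (macrophages of mouse 26 left out, adjusted p = 0.047).

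The class II promoters carry the Y box, here searched as CTGATTGG on both strands, which holds an inverted CCAAT box, within the module that drives these genes. It was found for 4 of the 12 class II list genes with a window (33.3%), against 4.7% of 27025 genes. The 4 were H2-Aa, H2-Eb1, H2-Oa (1.36 ± 0.60) and H2-Eb2, of which H2-Eb2 alone was called higher, from levels of 6.61, 1.42, 11.1 and 1.05 against 0, 0 and 0.296 CPM. Of these, 3 are shown, with the box in capitals, because a gene called higher and genes not called share the box. They lie at chr17:34287842-34287899 on the minus strand and at chr17:34305780-34305837 and chr17:34325547-34325604 on the plus strand, in that order:
H2-Aa: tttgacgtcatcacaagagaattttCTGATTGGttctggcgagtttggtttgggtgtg
H2-Eb1: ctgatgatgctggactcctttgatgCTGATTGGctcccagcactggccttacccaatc
H2-Eb2: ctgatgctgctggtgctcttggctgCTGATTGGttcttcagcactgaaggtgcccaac
The NBRE, AAAGGTCA, which NR4A1 binds and which ends in the half-site AGGTCA of other nuclear receptors, was searched likewise in the promoters of 17 patrolling genes and found in 0, against 1.7% of all genes, which says only that these letters are not in these windows.

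**Figure D4:**
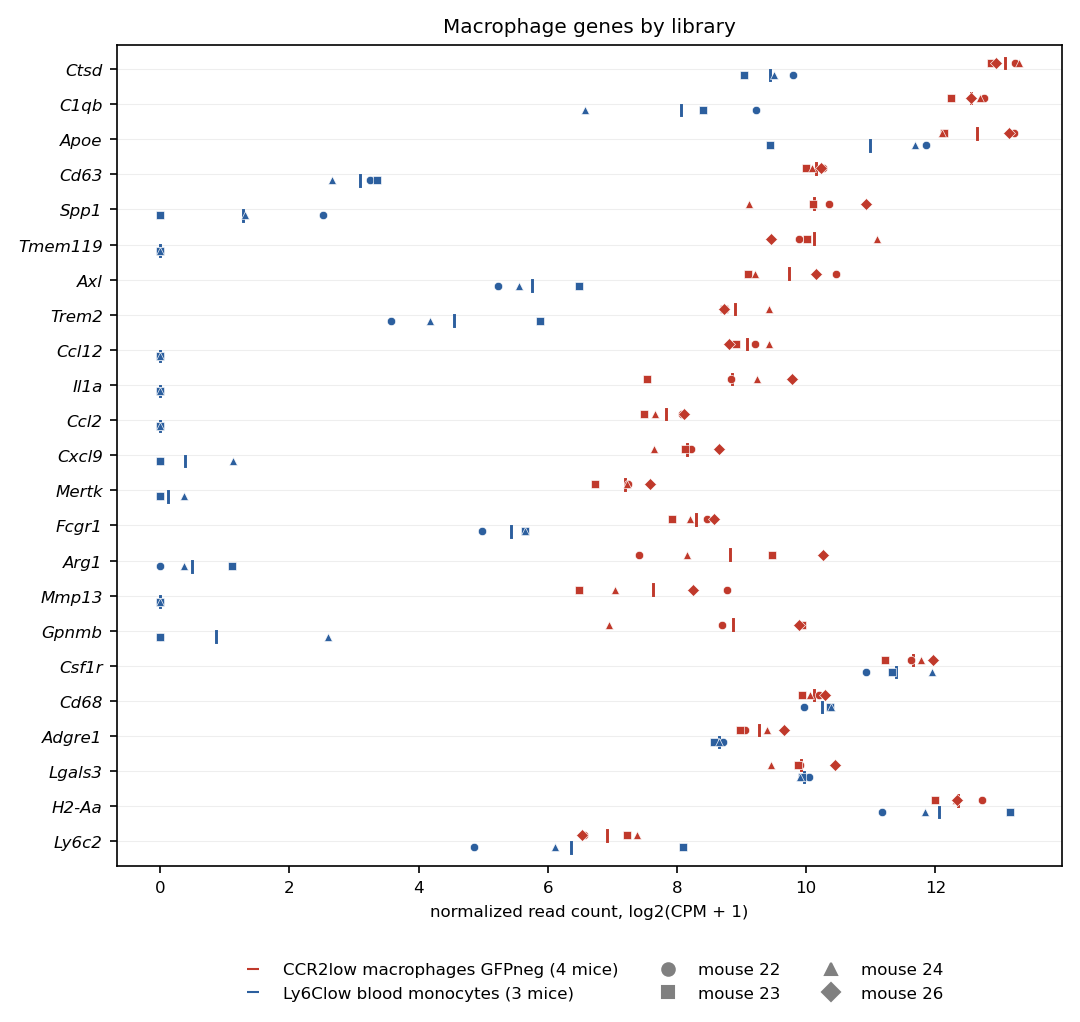
Normalized read count, as log2(CPM + 1), of 23 genes in every library (red, CCR2low macrophages GFPneg; blue, Ly6Clow blood monocytes; marker shape, mouse; vertical bars, population means of the plotted values). The upper 17 genes, down to Gpnmb, were called higher in the macrophages, and the lower 6, from Csf1r to Ly6c2, were not called.

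Chemokine genes had the largest median of the 26 lists. Of 22 members 14 were higher and 2 lower (15 and 0 without the mouse 23 library, 17 and 0 with spike-in scaling), and the median was 6.85, or 4.72 with genes at 0 set to their bound. Ccl2, the main ligand of CCR2, was at 269, 178, 201 and 274 CPM and had no read in any monocyte library, at least 199.9-fold. Ccl7 and Ccl12, further CCR2 ligands encoded beside it (GRCm38 chr11:82035571-82037453, chr11:82045712-82047525 and chr11:82101845-82103400), were at 203, 173, 165 and 292 and at 588, 479, 685 and 448 CPM and likewise at 0 in the monocytes, at least 181-fold and 477-fold. The same held for Ccl8, from the same cluster, at 118, 339, 148 and 548 CPM (at least 249.8-fold).

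Cxcl9 and Cxcl10, interferon-induced ligands of CXCR3, a chemokine receptor of T cells, were at 298, 277, 199 and 401 CPM (Cxcl9) and 443, 390.4, 370.0 and 296 CPM (Cxcl10) in the macrophages. In the monocytes they stood at 0, 0 and 1.18 and 0, 0 and 15.4 CPM (adjusted p = 1.0e-07 and 4.5e-06). The CC chemokines Ccl3 and Ccl4 had log2 fold changes of 3.94 ± 0.75 and 8.09 ± 0.65. Cxcl16, a ligand that is also a scavenger receptor, was at 994, 591, 630.4 and 1038 against 7.08, 0 and 13.9 CPM (6.82 ± 0.64, adjusted p = 2.1e-08). Cxcl2, a neutrophil attractant, was at 231, 117, 169.7 and 739.9 CPM and at 0 in the monocytes (at least 273-fold), with mouse 26 the highest. Ccl6 and Ccl9 were lower, at 275, 822, 945 and 978 against 2367, 2754 and 1613 CPM (-1.57 ± 0.46) and at 56.2, 154, 156 and 320.1 against 583, 1742 and 600.5 CPM (-2.51 ± 0.66). No call remained without 1 library for Ccl6 (monocytes of mouse 23, adjusted p = 0.056) and Ccl9 (monocytes of mouse 23, adjusted p = 0.076). Ccl6 also changed its sign with spike-in scaling. Left out alone, 1 library moved the log2 fold change to 10.27 for Ccl4 (monocytes of mouse 22), 6.18 for Ccl3, 7.502 for Ccl4 and 6.22 for Cxcl16 (monocytes of mouse 23) and 7.92 for Cxcl16 (monocytes of mouse 24).

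Among 20 chemokine and egress receptors 4 were higher and 4 lower (3 and 5 without the mouse 23 library, 6 and 1 with spike-in scaling). Over all genes 15% were higher and 8.35% lower. Ccr1 was higher, at 745, 446, 458 and 686 against 88.2, 60.5 and 36.99 CPM (3.24 ± 0.34, adjusted p = 1.0e-07), as was Ccrl2, an atypical receptor that binds chemerin, at 629, 361, 578 and 1464 against 33.5, 9.25 and 32.6 CPM (4.91 ± 0.56, adjusted p = 3.7e-07). Ccr3, at 17.6, 73.6, 69.8 and 37.97 against 0.472, 0 and 7.69 CPM, and Cx3cr1 were the other higher members. Besides Ccr2 and S1pr5, S1pr4, a second sphingosine 1-phosphate receptor, and Fpr2, a formyl peptide receptor, were lower (-2.30 ± 0.70 and -2.16 ± 0.73). Ccr2 was selected to be low by the sort. With spike-in scaling S1pr5 alone of the 4 was still called, and Ccr2, S1pr4 and Fpr2 stood at -1.01, -0.55 and -0.15. Ccr7 and S1pr1 were not called. With the mouse as a block 7 receptors were higher and 5 lower. Left out alone, each library in parentheses ended the call of Ccr3 (monocytes of mouse 22 or 23, adjusted p = 0.055 to 0.064), S1pr4 (macrophages of mouse 22 or 26, adjusted p = 0.051 to 0.055) and Fpr2 (macrophages of mouse 23, 24 or 26 or monocytes of mouse 22, adjusted p = 0.066 to 0.9).

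Cytokine genes were higher in 9 of 21 cases and lower in 3 (10 and 2 without the mouse 23 library, 10 and 0 with spike-in scaling), with a median of 2.89, or 2.32 with genes at 0 set to their bound. Il1a was at 455, 184, 602 and 879 CPM with no read in any monocyte library, at least 459.7-fold. Il1b, the related cytokine, was present in both, at 1274, 461, 725 and 2150 against 129, 210.1 and 128 CPM (2.89 ± 0.57, adjusted p = 0.00053). Il1rn, the receptor antagonist, was higher as well, at 395, 409, 429 and 734 against 2.36, 0 and 17.5 CPM (6.13 ± 0.67, adjusted p = 2.1e-07). Agonists and antagonist of the IL-1 receptor were therefore higher in the same libraries. The log2 fold change without 1 library was 5.53 for Il1rn (monocytes of mouse 23) and 8.78 for Il1rn (monocytes of mouse 24).

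Il1r2, the decoy receptor for IL-1, was at 84.8, 117, 70.8 and 347 against 3.30, 0 and 5.03 CPM (5.74 ± 1.08, adjusted p = 0.00034). Osm (oncostatin M), Tnf and the IL-18 inhibitor gene Il18bp had log2 fold changes of 5.69 ± 0.69, 3.69 ± 0.84 and 5.25 ± 0.84. Il10, an inhibitory cytokine, was low, at 8.81, 6.37, 10.2 and 35.9 CPM against 0 (at least 13.3-fold). Il4ra was not called (0.95 ± 0.56), with monocyte values spread over 49.1, 598 and 226 CPM. Lower were Il17ra (-2.44 ± 0.55), Ebi3, a subunit of IL-27 and IL-35 (-1.29 ± 0.31), and Casp1, which cleaves pro-IL-1β (-0.96 ± 0.32), the last 2 of which turned positive with spike-in scaling. The call was lost without 1 library for Casp1 (macrophages of mouse 23, 24 or 26 or monocytes of mouse 23, adjusted p = 0.059 to 0.26). Without 1 library the threshold was passed by Il4ra (monocytes of mouse 23 left out, adjusted p = 0.023). Leaving out 1 library moved the log2 fold change to 4.96 for Il1r2 and 3.02 for Tnf (macrophages of mouse 26), 5.14 for Il1r2, 7.52 for Osm, 3.09 for Tnf and 4.65 for Il18bp (monocytes of mouse 23) and 6.62 for Il1r2 (monocytes of mouse 24). Among the monocytes mouse 24 alone held reads of Il18bp.

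Of 14 genes of arginine and itaconate metabolism 5 were higher and 3 lower (5 and 2 without the mouse 23 library, 7 and 1 with spike-in scaling). Arg1, arginase 1, was at 169.6, 709, 284 and 1227 CPM against 0, 1.16 and 0.296 CPM (adjusted p = 1.1e-05). Nos2, inducible nitric oxide synthase, which uses the same substrate, was at 24.8, 21, 1.85 and 146 CPM against 0 (at least 41.99-fold, adjusted p = 0.0022). Both were highest in mouse 26, and their order over the other mice differed. Irg1 (Acod1), which makes itaconate, was at 149.8, 139.9, 136 and 209 against 0, 0 and 3.85 CPM (6.70 ± 0.66, adjusted p = 4.3e-08). Odc1, which starts polyamine synthesis from ornithine, was at 13.2, 34.7, 39.3 and 30.6 against 0.472, 0 and 2.37 CPM (4.79 ± 0.81, adjusted p = 0.0001). The lower members were Retnla and Chil3, secreted proteins with no part in arginine catabolism, and Sat1, which acetylates polyamines (-1.18 ± 0.20). Sat1 turned positive with spike-in scaling. With 1 library left out the log2 fold change was 6.84 for Odc1 (monocytes of mouse 24). Reads of Irg1 in the monocytes came from mouse 24 alone.

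Among 20 phagocytic and scavenger receptors tested 7 were higher and 2 lower (8 and 2 without the mouse 23 library, 8 and 0 with spike-in scaling). Stab1, stabilin 1, was at 72.1, 73.1, 71.7 and 392.4 CPM and at 0 in the monocytes (at least 132-fold), with mouse 26 far above the rest. Msr1, scavenger receptor A, was at 843, 392.1, 282 and 607 against 19.8, 4.24 and 87.9 CPM (3.81 ± 0.58, adjusted p = 2.3e-05), and Gas6, the ligand of Axl and Mertk, at 49, 31.4, 53.2 and 11.6 CPM against 0 (at least 31.5-fold). Cd36 and Scarb1, both receptors for lipoproteins, were the lower members, Scarb1 at 94.7, 91.5, 40.2 and 131 against 302, 168 and 594 CPM (-1.99 ± 0.41, adjusted p = 0.00089). With spike-in scaling neither was called, with Cd36 at -1.63 and Scarb1 at -0.75. Single libraries moved the log2 fold change to 5.496 for Msr1 and -1.38 for Scarb1 (monocytes of mouse 24).

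Of 24 Fc and paired immune receptors 9 were higher and 8 lower (8 and 6 without the mouse 23 library, 8 and 1 with spike-in scaling). Fcgr2b, the inhibitory Fc receptor, and Fcgr3, an activating one, were higher (1.97 ± 0.25 and 1.37 ± 0.25), along with Fcgr1 above. Fcgr4, the Fc receptor of patrolling monocytes, was not called, at 388, 325, 241 and 462 against 498, 682 and 358 CPM (-0.53 ± 0.31, adjusted p = 0.23). Fcer1g, the chain with which the activating receptors signal, was lower (-0.78 ± 0.26), but positive with spike-in scaling, as were Fcgrt and Pilra. Trem3, an activating receptor, was at 11.6, 8.26, 18.96 and 14.8 against 394, 174 and 267 CPM (-4.38 ± 0.56, adjusted p = 2.5e-06), and Cd300a, an inhibitory one, at 238, 119.6, 152 and 252 against 1048, 945 and 1306 CPM (-2.53 ± 0.31, adjusted p = 1.0e-06). Siglech, which microglia also express, had 149.8, 260.5, 540.2 and 117 CPM against 0 (at least 231-fold). No call remained without 1 library for Fcer1g (macrophages of mouse 23, 24 or 26 or monocytes of mouse 22 or 23, adjusted p = 0.068 to 0.12), Fcgrt (macrophages of mouse 22, 23 or 24 or monocytes of mouse 22 or 23, adjusted p = 0.081 to 0.11) and Pilra (macrophages of mouse 23, 24 or 26 or monocytes of mouse 22 or 24, adjusted p = 0.067 to 0.14).

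Of 25 integrins and adhesion genes 3 were higher and 7 lower (4 and 7 without the mouse 23 library, 6 and 0 with spike-in scaling). Besides Itgal and Spn, the lower members were Itga4, the alpha chain of VLA-4, at 45.1, 58.7, 63.4 and 94.9 against 214, 133 and 664 CPM (-2.36 ± 0.45, adjusted p = 0.00043), Cd44, the hyaluronan receptor (-2.07 ± 0.28), Icam2 (-2.98 ± 0.48), Emilin2 (-1.90 ± 0.43) and Itgb2, the beta chain of LFA-1 (-0.98 ± 0.24). With spike-in scaling none of the 7 was called, Itgb2 turned positive, and Itga4 and Cd44 stood at -1.41 and -0.42. Vcam1, the ligand of VLA-4, was at 231, 153, 151 and 606 CPM in the macrophages and at 0 in the monocytes, at least 247-fold. Itgb5 was also higher (3.03 ± 0.46), while Itgax (CD11c) was not called (0.47 ± 0.53). Left out alone, each library in parentheses ended the call of Itgb2 (monocytes of mouse 24, adjusted p = 0.051). Left out alone, 1 library moved the log2 fold change to -1.39 for Itga4 and 4.16 for Itgb5 (monocytes of mouse 24).

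Matrix and plasminogen genes were higher in 16 of 28 cases and lower in 2 (15 and 1 without the mouse 23 library, 17 and 0 with spike-in scaling), with a median of 2.08. Sparc, a matrix-binding glycoprotein that microglia also express, was at 722, 1118, 2078 and 747 CPM and at 0 in the monocytes (at least 1011-fold). Mmp13, a collagenase, was at 436, 88.2, 130.0 and 303 CPM against 0 (at least 208-fold), and Mmp2, a gelatinase, at 166, 115, 95.7 and 123 against 0, 0 and 0.592 CPM (adjusted p = 6.1e-10). Mmp14, which activates both enzymes at the cell surface, was at 351, 128, 194 and 91.2 against 8.02, 0 and 0 CPM (6.31 ± 1.07, adjusted p = 0.00011). Tgfbi, a matrix protein, was at 2991, 1473, 1467 and 2838 against 279.8, 856 and 538 CPM (1.97 ± 0.31, adjusted p = 3.9e-05), and its mean in Ly6Chigh monocytes was 1602 CPM. Mmp9 and Plaur were not called (-1.24 ± 1.21 and -0.18 ± 0.29), and Ltbp1 and Prg4 were lower (-8.10 ± 1.66 and -5.02 ± 1.69). The call was lost without 1 library for Prg4 (macrophages of mouse 23, 24 or 26 or monocytes of mouse 22 or 23, adjusted p = 0.057 to 0.1). The log2 fold change without 1 library was -5.03 for Ltbp1 (monocytes of mouse 23) and 5.65 for Mmp14 (monocytes of mouse 24). Among the monocytes mouse 22 alone held reads of Mmp14.

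Of 46 transcription factors tested 11 were higher and 11 lower (9 and 10 without the mouse 23 library, 13 and 1 with spike-in scaling). Lower were Klf4, at 2.75, 5.43, 17.1 and 10.02 against 117, 144 and 52.7 CPM (-3.56 ± 0.57, adjusted p = 5.1e-05), Cebpb, which patrolling monocytes need for survival (-2.99 ± 0.61), Klf2 (-2.18 ± 0.74), Pou2f2 (-2.63 ± 0.50), Nfe2 (-4.60 ± 0.71) and Rara (-2.84 ± 0.43). Pparg, a nuclear receptor of lipid metabolism, was at 1.10, 3.07, 0 and 2.11 against 56.1, 1.54 and 89.97 CPM (-4.87 ± 1.13, adjusted p = 0.0027). Mef2c and Foxp1, 2 of the 11, turned positive with spike-in scaling. Higher were Irf8, at 928, 705, 870.4 and 633 against 215, 57.8 and 323 CPM (1.98 ± 0.41, adjusted p = 0.00098), Irf7 (1.97 ± 0.34), Hif1a (1.90 ± 0.42), Bhlhe40 (1.42 ± 0.38) and Tfec, at 13.2, 8.73, 2.78 and 15.3 CPM against 0 (at least 8.67-fold). Of the NR4A family, Nr4a2 and Nr4a3 were higher, from 8.81, 2.12, 10.2 and 18.5 and 11.6, 12.98, 5.09 and 14.8 CPM in the macrophages, while Nr4a1 was lower. Spi1 (PU.1), Zeb2 and Stat3 were not called. Zeb2 was called lower with the mouse as a block (adjusted p = 0.013). No call remained without 1 library for Mef2c (macrophages of mouse 22, 23 or 26 or monocytes of mouse 23 or 24, adjusted p = 0.093 to 0.24), Bhlhe40 (monocytes of mouse 23, adjusted p = 0.06) and Nr4a2 (macrophages of mouse 26 or monocytes of mouse 22 or 23, adjusted p = 0.053 to 0.089). Leaving out 1 library moved the log2 fold change to -5.49 for Pparg (macrophages of mouse 23) and -4.12 for Pparg (monocytes of mouse 24).

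Interferon-stimulated genes were higher in 19 of 36 cases and lower in 1 (23 and 1 without the mouse 23 library, 23 and 0 with spike-in scaling), with a median of 1.51. Bst2, tetherin, was at 405, 443, 557 and 370.2 against 104, 116 and 94.1 CPM (2.08 ± 0.22, adjusted p = 1.4e-07). Iigp1, a GTPase induced by interferon-γ, was at 412, 296, 153 and 186 against 0, 0 and 6.81 CPM (6.65 ± 0.87, adjusted p = 3.2e-06), and Isg15, a ubiquitin-like protein, at 224, 212, 346 and 127 against 23.1, 65.5 and 26.04 CPM (2.57 ± 0.45, adjusted p = 0.00015). These did not overlap. Irgm1, another interferon-induced GTPase, had a log2 fold change of 1.93 ± 0.30. Ifitm3 was the lower member (-1.51 ± 0.25) and turned positive with spike-in scaling. With 1 library left out the log2 fold change was 6.07 for Iigp1 and 3.19 for Isg15 (monocytes of mouse 23). Reads of Iigp1 in the monocytes came from mouse 24 alone.

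Cell cycle genes were higher in 27 of 32 cases and lower in 0 (29 without the mouse 23 library, 21 and 0 with spike-in scaling), with a median of 3.77. Top2a, topoisomerase II, was at 85.3, 168, 45.3 and 188 against 0.472, 0 and 6.51 CPM (5.55 ± 1.05, adjusted p = 0.00036), Cdk1 at 55.6, 129.5, 68.5 and 90.2 against 2.83, 0 and 2.66 CPM (5.52 ± 0.88, adjusted p = 4.5e-05), and Mki67 at 35.8, 39.2, 6.01 and 42.2 against 2.36, 1.16 and 3.26 CPM (3.73 ± 0.93, adjusted p = 0.0046). Stmn1, Rrm2 and Birc5, which act on microtubules, nucleotide supply and cell division, had log2 fold changes of 3.83 ± 0.40, 4.25 ± 0.58 and 6.37 ± 0.91. Ccnb2, cyclin B2, was at 68.8, 72.4, 35.2 and 71.7 against 0, 0 and 0.296 CPM. Mouse 24 had the lowest macrophage value of Top2a and Mki67. In CCR2high macrophages the means were 87.5 CPM for Top2a and 31.5 CPM for Mki67. Pcna was higher by less (0.67 ± 0.22), and the replication genes Mcm3 and Mcm4 and the regulator E2f1 were not called. Left out alone, each library in parentheses ended the call of Pcna (macrophages of mouse 23 or monocytes of mouse 22, adjusted p = 0.08 to 0.082). The threshold was passed without 1 library by Mcm3 (monocytes of mouse 23 left out, adjusted p = 0.0017), Mcm4 (monocytes of mouse 24 left out, adjusted p = 0.014) and E2f1 (monocytes of mouse 23 left out, adjusted p = 0.04). Single libraries moved the log2 fold change to 8.35 for Birc5 (monocytes of mouse 22), 4.95 for Top2a (monocytes of mouse 23) and 8.89 for Top2a and 6.001 for Rrm2 (monocytes of mouse 24).

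Immediate-early and heat-shock genes, which enzymatic dissociation of warm tissue is known to induce, were higher in 13 of 27 cases and lower in 0 (10 without the mouse 23 library, 14 and 0 with spike-in scaling), with a median of 2.18. Fos was at 2009, 1755, 2733 and 2941 against 75.95, 388 and 163 CPM (3.50 ± 0.42, adjusted p = 9.8e-07), Ier3 at 342, 310.0, 380.2 and 543 against 11.8, 13.5 and 4.44 CPM (5.33 ± 0.39, adjusted p = 3.3e-10), and Zfp36, which degrades cytokine mRNAs, at 2201, 1746, 2435 and 2477 against 217, 716 and 535 CPM (2.18 ± 0.31, adjusted p = 9.1e-06). Fosb and Atf3 had log2 fold changes of 6.22 ± 0.90 and 3.15 ± 0.57. The heat-shock genes Hspa8, Hsp90aa1, Dnajb1 and Hspa1b were not called. The part of dissociation in the levels of these genes, or of the chemokine and cytokine genes above, was not tested. Left out alone, 1 library moved the log2 fold change to 4.28 for Fos (monocytes of mouse 23) and 5.56 for Fosb and 3.76 for Atf3 (monocytes of mouse 24). Among the monocytes mouse 22 alone held reads of Fosb.

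Of 30 genes of glycolysis and the hypoxia response 15 were higher and 1 lower (12 and 1 without the mouse 23 library, 13 and 1 with spike-in scaling), with a median of 0.98. Vegfa, the angiogenic factor, was at 16.5, 18.2, 30.1 and 35.9 CPM against 0 (at least 21.8-fold), Bnip3 at 86.98, 191, 59.7 and 296 against 22.6, 0 and 13.6 CPM (3.72 ± 0.86, adjusted p = 0.0026), and Mif, a cytokine, at 257, 439, 234 and 412 against 104, 115 and 58.9 CPM (1.86 ± 0.31, adjusted p = 8.3e-05). The enzyme genes Pfkl and Tpi1 had log2 fold changes of 2.08 ± 0.42 and 1.89 ± 0.39, and Aldoa, Gapdh, Pkm and Ldha were higher by less (0.83 ± 0.21, 0.80 ± 0.22, 0.92 ± 0.26 and 0.67 ± 0.24). Among the enolases Eno1 was not called, at 1380, 1614, 1060 and 1790 against 1444, 1589 and 1276 CPM, and Eno3 was the lower member. Of 30 genes of oxidative phosphorylation 1 was higher and 3 lower (0 and 1 without the mouse 23 library, 0 and 0 with spike-in scaling), the median was -0.11, and the 3 lower members, Ndufa1, Ndufa4 and Cox4i1 (-0.92 ± 0.29, -1.18 ± 0.26 and -0.61 ± 0.22), turned positive with spike-in scaling. Atp5b, of the ATP synthase, was the higher member (0.96 ± 0.32). The call was lost without 1 library for Ldha (macrophages of mouse 23 or 26 or monocytes of mouse 22 or 24, adjusted p = 0.062 to 0.11), Atp5b (macrophages of mouse 22, 23 or 26 or monocytes of mouse 22 or 23, adjusted p = 0.051 to 0.18), Ndufa1 (macrophages of mouse 22 or 26 or monocytes of mouse 22 or 23, adjusted p = 0.051 to 0.11) and Cox4i1 (macrophages of mouse 22, 23, 24 or 26 or monocytes of mouse 22 or 23, adjusted p = 0.061 to 0.24). The log2 fold change without 1 library was 4.44 for Bnip3 (monocytes of mouse 22) and 3.12 for Bnip3 (monocytes of mouse 23).

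Ribosomal protein genes were lower in 16 of 34 cases and higher in 0, with a median of -0.65, but all 16 turned positive with spike-in scaling, where the list's median was 1.25 and 0 were called. Without the mouse 23 library 4 were lower. Rps14 was at 674, 762, 899 and 539.5 against 1627, 2025 and 874 CPM (-1.07 ± 0.26, adjusted p = 0.0041), and Rpl8, Rps16 and Rps27 had log2 fold changes of -1.05 ± 0.25, -0.90 ± 0.24 and -1.12 ± 0.28. In mouse 24 the Rps14 values of the macrophages and the monocytes were close.

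**Figure D5:**
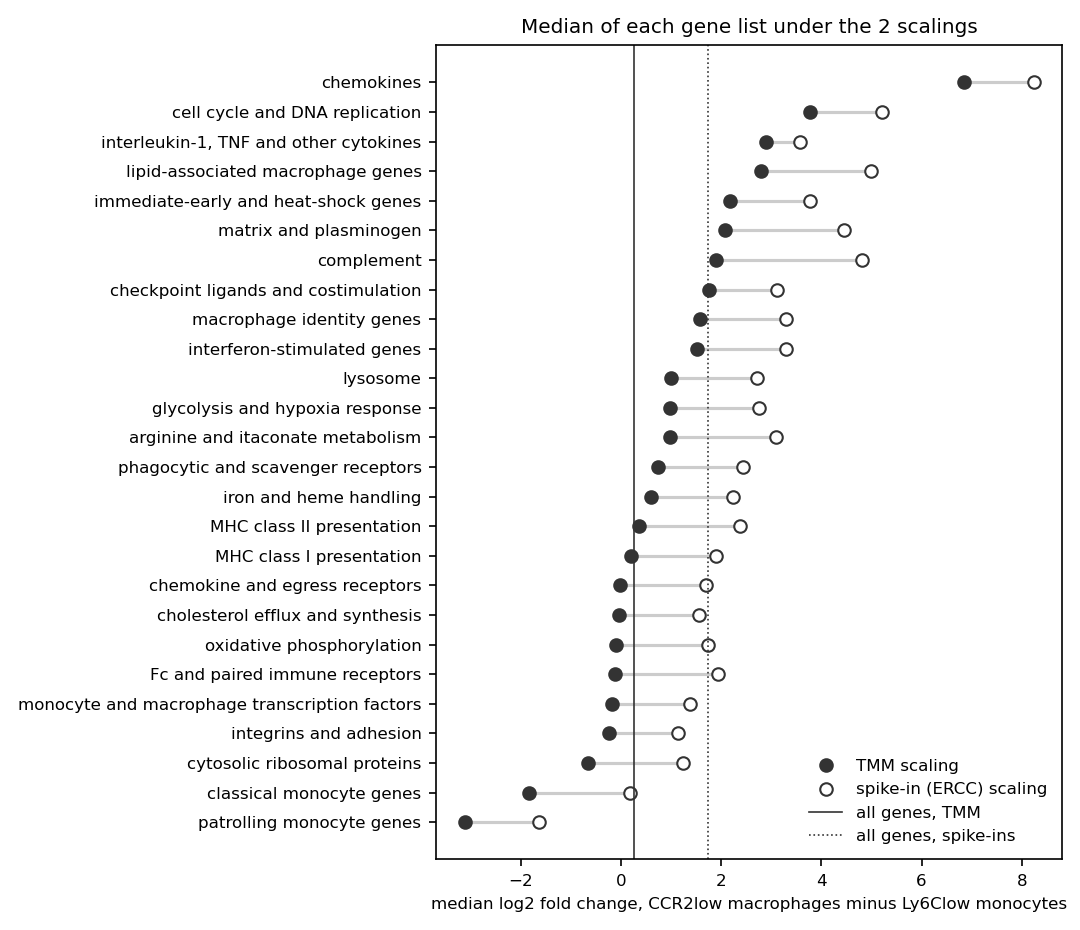
Median log2 fold change (macrophages minus monocytes) of each gene list with TMM scaling (filled) and with spike-in scaling (open). Vertical lines mark the median of all genes tested, 0.26 (solid) and 1.74 (dotted). Patrolling monocyte genes alone keep a median below 0 under both scalings.

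Checkpoint ligands and costimulatory genes were higher in 8 of 20 cases and lower in 0 (9 without the mouse 23 library, 8 and 0 with spike-in scaling), with a median of 1.75. Cd86 was at 304, 244, 312 and 308 against 39.2, 76.7 and 29.3 CPM (2.59 ± 0.33, adjusted p = 2.3e-06), Lgals9, galectin 9, at 961, 758, 897 and 792 against 115, 111 and 209.8 CPM (2.55 ± 0.28, adjusted p = 1.8e-07), and Cd274 (PD-L1) at 223, 125, 87.9 and 246 against 47.2, 3.86 and 79.9 CPM (1.96 ± 0.53, adjusted p = 0.0094). Cd276 and Lag3 were at 27.5, 17.9, 15.3 and 14.2 and at 19.3, 22.9, 41.2 and 8.97 CPM with no read in the monocytes (at least 16.2-fold and 20-fold), and Entpd1 (CD39), which degrades extracellular ATP, had a log2 fold change of 2.05 ± 0.39. No library of the macrophages overlapped with the monocytes for these genes. Cd80 and Cd40 were not called (1.93 ± 0.74 and 1.31 ± 0.60), but both were with the mouse as a block (adjusted p = 0.022 and 0.021), where 11 members were higher and 1 lower. Iron and heme genes gave 3 higher of 16, near the 15% of all genes, and 0 lower (3 and 1 without the mouse 23 library, 3 and 0 with spike-in scaling). Among the 3 was Fth1, the ferritin heavy chain, at 9041, 4973, 6607 and 8120 against 4383, 294 and 2116 CPM (1.67 ± 0.47, adjusted p = 0.012). Cp, ceruloplasmin, was at 35.2, 55.4, 16.2 and 78.6 against 0, 0 and 0.888 CPM and Tfrc, the transferrin receptor, at 13.8, 53.3, 28.7 and 22.1 against 0.944, 0 and 5.33 CPM (adjusted p = 0.00025 and 0.0011). Ftl1, the light chain, and Hmox1, heme oxygenase 1, were not called (-0.17 ± 0.25 and 1.28 ± 0.84). Of 22 genes of cholesterol efflux and synthesis 2 were higher and 2 lower (2 and 1 without the mouse 23 library, 2 and 0 with spike-in scaling). The shares over all genes were 15% and 8.35%. Npc2, which carries cholesterol out of lysosomes, was higher (0.86 ± 0.21). The exporters Abca1 and Abcg1 were on opposite sides, Abca1 at 99.1, 137, 111 and 374 against 13.7, 25.8 and 32.9 CPM (2.89 ± 0.80, adjusted p = 0.01) and Abcg1 at 31.9, 29.7, 27.3 and 63.8 against 78.8, 205 and 119 CPM (-1.81 ± 0.55, adjusted p = 0.018), although Abcg1 turned positive with spike-in scaling. No call remained without 1 library for Abcg1 (macrophages of mouse 23 or 24 or monocytes of mouse 23, adjusted p = 0.053 to 0.1). The block gave 4 lower cholesterol genes and 1 lower iron gene. Without 1 library the threshold was passed by Cd80 (monocytes of mouse 22 left out, adjusted p = 0.04996) and Cd40 (monocytes of mouse 23 left out, adjusted p = 0.049). Leaving out 1 library moved the log2 fold change to 2.26 for Abca1 (macrophages of mouse 26), 2.55 for Fth1 (monocytes of mouse 22) and 2.75 for Cd274 (monocytes of mouse 24).

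The remaining genes named by the rule of largest change were higher and at 0 in every monocyte library. P2ry13, a purinergic receptor on the microglial list, was at 249.9, 327, 649 and 239 CPM (at least 318-fold), Slco2b1, an organic anion transporter, at 193, 115, 336 and 176 CPM (at least 178-fold), and Syngr1, a vesicle protein, at 131, 138, 177 and 87.5 CPM (at least 116-fold). Tmem119 was at least 1057-fold higher. Mouse 24 was the highest macrophage library for P2ry13, Slco2b1, Syngr1, Tmem119, Siglech and Sparc, and its summed microglial level was the highest. In CCR2high macrophages the means were 673 CPM for Tmem119, 571 for Sparc, 258 for P2ry13 and 135 for Siglech.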

How the data were processed

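RNA-seq was run on sorted cells, from about 500 pg of RNA amplified with ERCC spike-ins and read as 75-bp pairs. The values used were raw read counts per gene, which the authors deposited in 2 tables after alignment to mm10, removal of duplicates with Picard 1.8.4 and counting with htseq-count on Gencode GRCm38.p3. Whether counting used strand is not given in the sources used here. Replicates are mice, named by the number in the title. The gene lists and the samples compared were chosen with earlier results of these data known.

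Spike-ins and rows that name no gene were kept out of library sizes. Counts in no feature made up 7.76% to 11.64% in the macrophages and 12.02% to 17.4% in the monocytes. The part of this difference in the results was not tested. Genes passing edgeR's filter for low counts were fitted in R 4.3.3 with edgeR 4.0.16 (TMM, quasi-likelihood, all populations in one fit without a mouse term), and p-values were adjusted by Benjamini and Hochberg over all genes tested. Alternatives were DESeq2 1.42.0, spike-in scaling, other filters, other samples and a mouse block. The script was tested on simulated data for this comparison (11241 genes, 200 changed). It recovered 7, 20, 39 and 42 of 50 changed genes at log2 fold changes of 1, 2, 3 and 4, with 2 false calls. The simulation changed equal numbers of genes up and down, while 23.4% of the real genes were called. It gave each gene the same spread in every library, with none standing apart like the monocytes of mouse 23. These rates may therefore not carry over to the real comparison.

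Named genes were the 12 called genes in each direction with the largest change beyond 2 standard errors (no overlap, at least 10 CPM in the higher population), up to 5 called members with the smallest p and up to 4 further members of each list, and the study's markers. Other genes of the lists and marker genes were named after their values were seen. A gene at 0 in all libraries of a population was given a bound from a floor of 3 counts per library, averaged over the population, which covers counting error only. Since same-numbered samples came from the same mouse, they are paired by design. The deviations of same-numbered libraries from their group means correlated at -0.0074, 0.058 and -0.027. Where leaving out 1 library moved a printed log2 fold change by over 1.5 times and the call was kept, the value without it is given. Where the other libraries of its population held no read, the library is named instead. Called genes given without a log2 fold change, such as Arg1, Tfrc and Cxcl10, were not followed in this way. Some genes are not reported here.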

Additional observations from a re-analysis of the deposited data

Results flagged for a closer look

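In the macrophages, 1 of the 4 libraries stood apart for 21 of the 245 named genes that could be checked (8.57%). The gap to the next library, as a share of the whole range, then exceeded Dixon's limit for 4 values, which chance alone gives for about 1 group in 20. All values are in CPM, each with that of the nearest other library. The 3 monocyte libraries are too few for this check.

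Mouse 26 stood apart for Abca1 (374, nearest 137), Abcg1 (63.8, nearest 31.9), Hmox1 (881, nearest 216), Il10 (35.9, nearest 10.2), Il1r2 (347, nearest 116), Il1rn (734, nearest 429), Itgam (880.2, nearest 490.3), Mrc1 (369, nearest 85.1), Nos2 (146, nearest 24.8), Stab1 (392.4, nearest 73.1) and Zeb2 (196, nearest 87.0). All of these were above the other 3 libraries. They include the mannose receptor Mrc1, the scavenger receptor Stab1 and the IL-1 inhibitors Il1r2 and Il1rn. Mrc1 and Stab1 are on the list of border-associated macrophages, whose summed level was highest in the macrophages of mouse 26 (2019 CPM). The part of such cells in these values was not tested.

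Mouse 24 stood apart for Ccnb2 (35.1, nearest 68.8), S100a9 (507, nearest 93.9) and Trem2 (684, nearest 425). Ccnb2 was below the other libraries and the rest above. The same library held the highest summed levels of the microglial and neutrophil markers, and their part in these values was not tested.

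Mouse 22 stood apart for Cd300lg (0.55, nearest 0), Hspa8 (1485, nearest 911), Ifitm3 (1246, nearest 1032), Ifitm6 (1.10, nearest 8.32), Prg4 (9.91, nearest 0.463) and Tgm3 (0.55, nearest 0). Ifitm6 was below the other libraries and the rest above, and Cd300lg and Tgm3 rest on single reads. Mouse 23 stood apart for Cd86 (244, nearest 304), below the others.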

How the results depend on the processing

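Of the 198 named genes that were called, 165 kept their call without any 1 library, and 58 kept it under all alternatives that could test them. Kept calls numbered 193 of 198 with DESeq2's size factors, 195 of 198 with its Wald test, 183 of 198 with no filter on low counts, 102 of 106 with at least 10 counts in every library, 139 of 196 when no other population was fitted and 133 of 198 with spike-in scaling. The 1739 higher and 966 lower genes became 469 and 567 with at least 10 counts in every library (4379 genes tested), 460 and 278 when no other population was fitted and 1586 and 34 with spike-in scaling. Lower genes numbered 642 with no filter and 593 with the first library of mouse 23. DESeq2's Wald test gave 2431 and 1030. Spike-in scaling without the mouse 23 monocytes, chosen after seeing the data, gave 583 and 37. Over the fits that left out 1 library, higher genes ranged from 1337 to 2536 and lower genes from 680 to 1142, the lowest and highest higher counts without the monocytes of mouse 23 and of mouse 24. The cause was not tested.

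With the mouse as a block over all populations the counts were 1903 and 996, and 198 of 198 named calls were kept. With the replicate block and only the 3 shared mice they were 81 and 72, and 67 of 193 were kept, from fewer samples. Beside the changes given above, the block changed no other call among the named genes.

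Among the named genes that were not called, spike-in scaling called Cd40, Cd74, H2-Aa, H2-DMb1, H2-Eb1, H2-Oa, Il4ra, Itgax, Ly6c2 and Mcm3 higher, DESeq2's Wald test Adgre1, Cd80 and H2-Oa higher, and the first library of mouse 23 Cd40, E2f1, Il4ra, Itgax, Lamp2 and Mcm3 higher and Dnajb1 lower. The sign of 24 named genes called lower turned with spike-in scaling, where their log2 fold changes were Abcg1 0.18, Casp1 1.15, Ccl6 0.22, Cfp 1.53, Cox4i1 1.32, Cr1l 1.01, Ebi3 0.29, Fcer1g 1.14, Fcgrt 1.16, Foxp1 0.037, Ifitm3 0.31, Itgb2 0.39, Mef2c 0.62, Mgst1 0.36, Ndufa1 1.09, Ndufa4 0.66, Pilra 0.38, Ptprc 0.062, Rpl8 0.92, Rps14 0.92, Rps16 0.89, Rps27 0.65, Sat1 0.64 and Tyrobp 0.77. This scaling also moved the median of all genes by 1.48. Without the mouse 23 monocytes the median was 0.137 with TMM and 1.21 with the spike-ins. At depths of 1799420 to 3809705 counts, a gene with no read was not detectable rather than absent.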
